A study of Mus musculus with 2 samples.

Results

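The 10 genes of the sarcoplasmic reticulum calcium pumps, their peptide inhibitors and the calcium-binding proteins of muscle were followed in newborn mouse skeletal muscle: Atp2a1, Atp2a2, Atp2a3, Sln, Pln, Casq1, Casq2, Srl, Hrc and Pvalb. They were chosen by symbol, from a list of known functions, and each symbol matched 1 of the 43346 genes in the deposited gene tables. The transcript tables gave 3 models of Atp2a1 among 103639 transcript models of genes. Skeletal muscle of B6NCrl mice was taken at postnatal day 0, with no treatment or genotype named. Total RNA of a tissue portion from 1 pup, 13 pg or 1 cell equivalent of it, went into a library, and there are 2. They are biological replicates of 1 group and share a donor entry in the labels. Their spread holds animal, tissue portion and preparation together, which cannot be told apart. With 1 group of n = 2 there is no test, and a difference between genes was said to exceed the spread where its sign was the same in each library and the mean was larger than 2 SD.

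Muscle fibres store calcium in the sarcoplasmic reticulum, release it to contract and pump it back to relax. The pumps are P-type ATPases: Atp2a1 (SERCA1) serves fast fibres, Atp2a2 (SERCA2) slow fibres and heart, and Atp2a3 (SERCA3) mainly non-muscle cells. Sarcolipin (Sln) and phospholamban (Pln) are short membrane peptides that bind the pumps and lower their activity. Pln is best known from heart, and Sln is found in skeletal muscle and heart. Inside the reticulum the calsequestrins bind calcium with low affinity and high capacity, together with sarcalumenin (Srl) and the histidine-rich calcium-binding protein (Hrc). Casq1 is the calsequestrin of skeletal fibres, and Casq2 is best known from heart and slow fibres. Parvalbumin (Pvalb) buffers calcium in the cytosol of fast adult fibres.

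Values are in TPM, a length-adjusted share of all rows of a file, given as mean ± SD over n = 2 unless each library is named. Expected counts are estimated reads, and the libraries held 32103374 and 38977618 of them. Marker genes of the labelled tissue were present, with 7 of 7 fast fibre and 6 of 6 slow fibre markers at 1 TPM and 5 counts or more in both libraries. The fast fibre list includes Myh8, the perinatal myosin heavy chain gene. Heart markers were at or near 0: 0 of 7 were detected, their summed level was 0.18 and 0.17 TPM, and Nppa, Nppb, Ryr2, Tnni3 and Mybpc3 had no reads in either library. In RNA from whole tissue, fewer cells of a type and less RNA per cell cannot be told apart.

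Transcripts for the fast pump and for sarcolipin were abundant, both calsequestrins stood at about the same level, and phospholamban and the SERCA3 pump were at or near 0. By the detection rule of 1 TPM and 5 counts in both libraries, 8 of the 10 members were detected, against 10% of all genes in the tables. The members differed widely in level, and their sum took 1.13% of all TPM in replicate 1 and 1.36% in replicate 2. Their median level was 345 TPM over all 10 members, and the median of the 4356 genes detected in both libraries was 46.2.

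**Figure D1:**
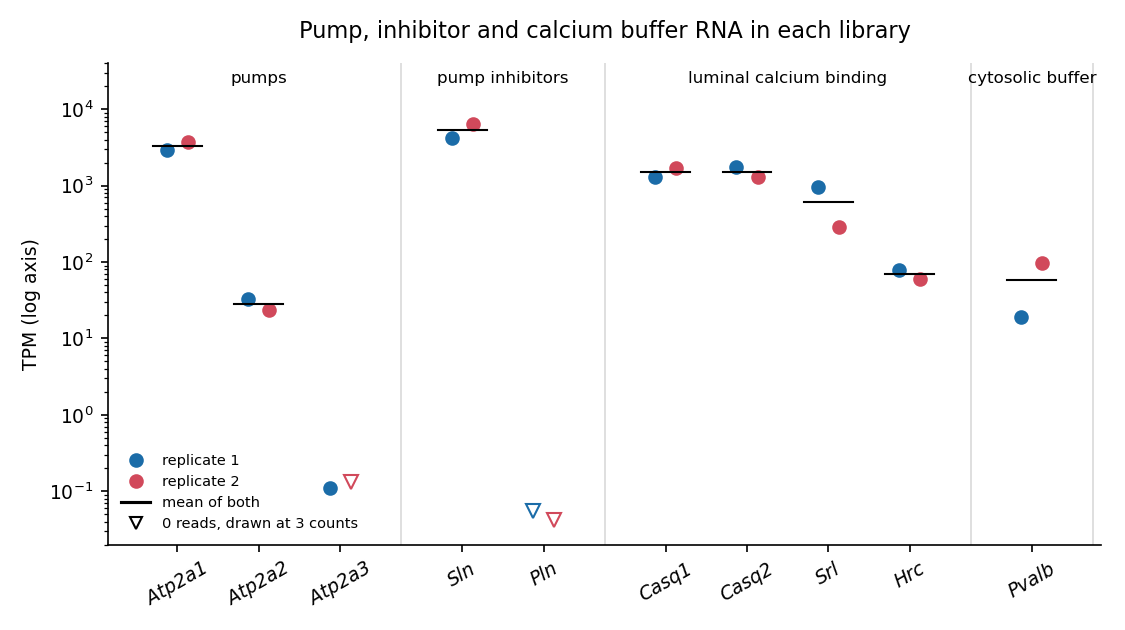
TPM of the 10 members on a log axis, with 1 point per library, a bar at the mean of both libraries, and open triangles at the level of 3 counts where a library had 0 reads. Sln and Atp2a1 stand at 2916.38 TPM or higher in both libraries, Pln has no reads in either, and the points of Srl and Pvalb lie farthest apart among the detected members.

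Atp2a1 (chromosome 7, 126445858 to 126463108, minus strand of GRCm38) had 2916.38 TPM in replicate 1 and 3749.17 in replicate 2, from 159156 and 246087 reads. It was the 35th and 32nd highest gene of the libraries, at 3333 ± 589. Atp2a2 (chromosome 5, 122453513 to 122502225, minus strand) had 33.24 and 23.82 TPM from 3419 and 3138 reads. The fast pump thus exceeded the slow pump 87.7-fold in replicate 1 and 157-fold in replicate 2, and the log2 ratio of Atp2a2 to Atp2a1 was −6.83 ± 0.58. With all Atp2a1 reads set over its full-length model, a scaling taken up with the Atp2a1 forms, the pump exceeded Atp2a2 58.1-fold and 97.9-fold. Atp2a1 held 98.87% and 99.37% of the summed TPM of the 3 pump genes.

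Within the small Atp2a2 signal, reads fell on the model that has 2994 coding bases in the later GENCODE M21 annotation, the muscle form known as SERCA2a. As deposited this model spans 4314 bases, and in M21 it spans 3984. Naming the forms therefore rests on M21, and whether the deposited models end alike was not tested. It had 33.24 TPM in replicate 1 and 23.81 in replicate 2. The longer general form with 3132 coding bases, SERCA2b, had 0 reads in replicate 1 and 2.28 in replicate 2. Other genes at such levels were often missed in a library: of genes at 30 to 100 TPM in replicate 1, the class of Atp2a2 there, 69.7% were also detected in replicate 2. Of genes at 10 to 30 TPM in replicate 2, its class in that library, 51.6% were also detected in replicate 1.

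Atp2a3 (chromosome 11, 72961169 to 72993044) had 2 reads in replicate 1 (exact 95% Poisson interval 0.242 to 7.22, which covers counting error only) and 0 in replicate 2. Those 2 reads fell on a noncoding model of 816 bases, and its coding models had 0 reads in both libraries. Markers of cells in which SERCA3 is known, such as platelets, lymphocytes and endothelium, were detected to different degrees. Of endothelial markers 4 of 6 were detected in both libraries, with a summed level of 494 and 257 TPM. Of platelet markers 1 of 5 was, Pf4, with 325.25 and 394.22 TPM, while Ppbp, Itga2b, Gp9 and Gp1bb had no reads. Of lymphocyte and leukocyte markers 0 of 5 were detected, at summed levels of 0.24 and 0.31 TPM.

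The adult and neonatal forms of Atp2a1 differ at the end of the coding sequence. The adult form, SERCA1a, holds a 42-base exon (chromosome 7, 126446545 to 126446586) that adds 2 coding bases and a stop codon, and the exon that follows it is then noncoding. In the neonatal form, SERCA1b, that exon is skipped and 23 coding bases and a stop codon are read from the last exon (126445860 to 126446126), which gives a longer, charged tail. Both ends are shown 5′ to 3′ from the GENCODE M21 transcripts on GRCm38. The 45 shared coding bases are in lower case, and the coding end of each form, stop codon included, is in capitals. The neonatal capitals lie in the last exon, which the adult model also holds as noncoding bases, so the bases themselves are not particular to the neonatal form.
adult Atp2a1: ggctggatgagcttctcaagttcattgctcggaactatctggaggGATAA
neonatal Atp2a1: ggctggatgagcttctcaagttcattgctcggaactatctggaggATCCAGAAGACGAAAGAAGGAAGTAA

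Both forms were assigned reads in both libraries. In replicates 1 and 2 the adult model was assigned 1726.31 and 2036.77 TPM, and the neonatal model 1185.7 and 1708.38. The adult share of both was 59.3% and 54.4%, or 56.8 ± 3.46%, and the neonatal share was 43.2% in the mean. Another model, of 328 bases, took 24.45 and 28.74 reads. The adult model was the higher one in each library, and replicate 2 had the larger neonatal share.

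These shares rest on unequal models. The adult model spans 3477 bases in 23 exons, while the neonatal model spans 681 bases in 5 exons and lacks the first part of the coding sequence. Reads from the earlier part of a neonatal mRNA therefore could be assigned only to the adult model, so the adult share cannot be read as the share of adult mRNA molecules. By reads with no length adjustment the adult model held 89.4% in replicate 1 and 87.4% in replicate 2. The bases that tell the forms apart are few, and read counts across the 42-base exon alone were not used here. Addition of a short model to a long one also raises the level of the gene: with all Atp2a1 reads set over the full 3477-base model, an alternative chosen after seeing the data, the pump stood at 1931 and 2331 TPM, a mean of 2131 against 3333, over 1.5 times lower. On the other strand, Rabep2 has a model that overlaps 763 bases of Atp2a1 exons, and it was assigned 2339 and 2549 reads. Whether counting used strand is not stated in the labels or headers, so reads from the overlap may not be told apart.

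**Figure D2:**
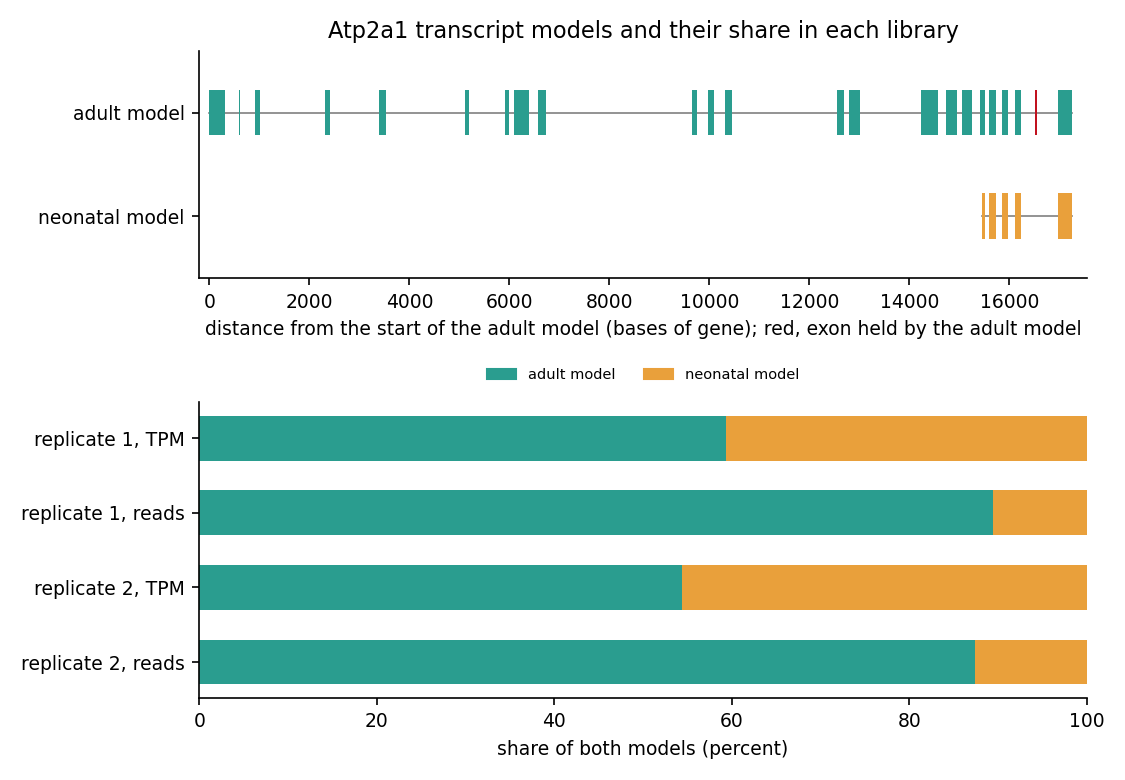
Top, exons of the adult and neonatal Atp2a1 models by distance from the start of the adult model, with the exon held by the adult model in red. Bottom, percent of the TPM and of the reads of both models in each library: the neonatal model holds 40.7% and 45.6% of TPM but 10.6% and 12.6% of reads.

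The pump inhibitors stood at opposite ends of the range. Sln (chromosome 9, 53850164 to 53854560, plus strand) was the highest member, with 4253.87 TPM in replicate 1 and 6368.96 in replicate 2, the 23rd and 16th highest gene. Its 43180 and 82790 reads gave 5311 ± 1496 TPM. Pln (chromosome 10, 53337667 to 53345987) had 0 reads in both libraries. By counting error alone, a count of 0 allows up to 3 counts, or 0.0545 and 0.0426 TPM on its model. On that basis Sln was at least 77987-fold higher than Pln in replicate 1 and at least 149526-fold in replicate 2. Of the 100-base stretches of Pln, 57.1% also occur in transcripts of Cep85l or of a noncoding gene at the same place on the other strand, and Cep85l also had 0 reads in both libraries. At 13 pg of RNA a gene can be lost before sequencing, which was not tested for Pln. Of genes at 10 to 30 TPM in replicate 1, 59.5% were also detected in replicate 2. The folds therefore describe these libraries and set no lower limit for the muscle itself.

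Coding sequences of the short pump-binding peptides are given whole because they show how small these genes' products are. Sln encodes 31 codons, Pln 52 and Mrln, which encodes the skeletal muscle peptide myoregulin, 46. They are written 5′ to 3′ from the GENCODE M21 transcripts on GRCm38, with the start and stop codons in capitals.
Sln: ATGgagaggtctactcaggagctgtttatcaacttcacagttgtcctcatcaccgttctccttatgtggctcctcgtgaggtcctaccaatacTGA
Pln: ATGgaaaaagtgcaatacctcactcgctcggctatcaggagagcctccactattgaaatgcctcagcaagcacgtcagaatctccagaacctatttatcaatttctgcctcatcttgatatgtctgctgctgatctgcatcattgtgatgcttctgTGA
Mrln: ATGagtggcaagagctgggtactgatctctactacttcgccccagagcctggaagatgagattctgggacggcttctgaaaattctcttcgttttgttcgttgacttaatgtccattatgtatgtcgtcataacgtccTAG

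Sln transcripts exceeded those of the fast pump in both libraries, 1.46 to 1 in replicate 1 and 1.70 to 1 in replicate 2. The log2 ratio of Sln to Atp2a1 was 0.65 ± 0.16 and exceeded the spread. The direction depends on length: Sln reads lie on a 515-base model, and by reads alone the log2 ratio turned to −1.73, since Atp2a1 had more reads than Sln. With all Atp2a1 reads over its full model the excess of Sln rose to 2.20 and 2.73 to 1. The Sln model of the deposited tables was also shorter than the 1318-base model of the later GENCODE M21 annotation, and how reads on the added bases would move the level was not tested.

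Other peptides that bind the pumps were lower than Sln. Mrln had 91.38 TPM in replicate 1 and 258.81 in replicate 2, which left Sln 46.6-fold and 24.6-fold higher. Arln, which encodes another-regulin and is listed as 1810037I17Rik, had 53.25 and 53.29 TPM, and Smim6, which encodes endoregulin, had 0 reads in both. Strit1, the gene of the peptide DWORF, was not analysed here. Of the 3 peptide genes with a row, 2 were detected in both libraries.

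**Figure D3:**
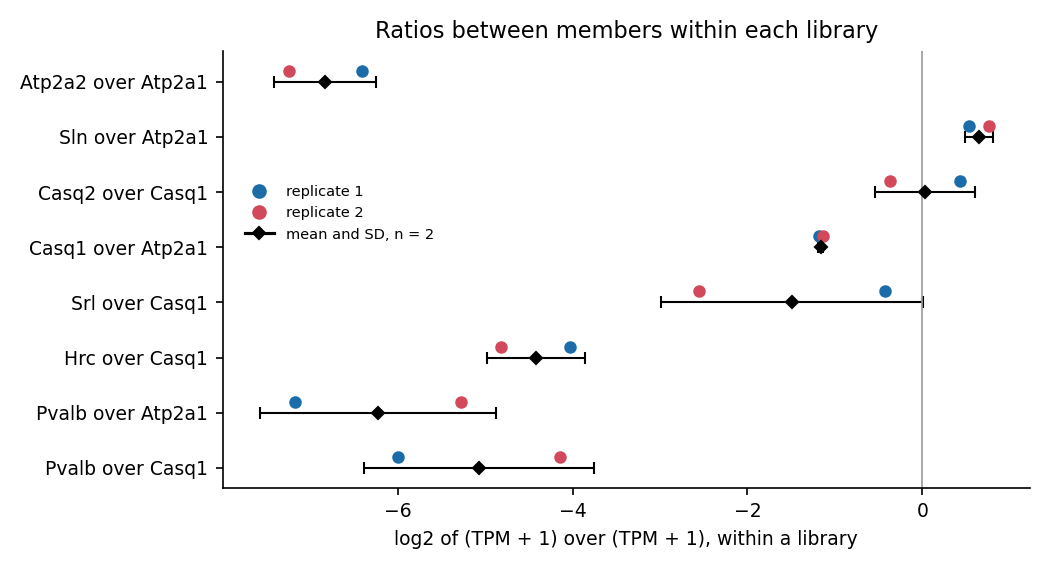
Log2 ratios between members within each library, of TPM plus a pseudocount of 1, with points for the libraries and a diamond and bar for mean and SD (n = 2); pairs with Pln or Atp2a3, which were at or near 0, are left out. Casq1 over Atp2a1 differs least between libraries, and Casq2 over Casq1 and Srl over Casq1 have bars that reach or cross 0.

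By TPM, calsequestrin RNA was split about evenly between Casq1 and Casq2. Casq1 (chromosome 1, 172209894 to 172219868) was at 1286.23 TPM in replicate 1 and 1701.89 in replicate 2, while Casq2 (chromosome 3, 102086415 to 102146514) had 1729.17 and 1314.38. Casq2 was the higher one in replicate 1 and Casq1 in replicate 2, and the ranges overlapped. This order depends on length: by reads alone Casq2 was higher in both libraries, with 103485 against 54472 and 100607 against 90979. Without length adjustment the mean log2 ratio of Casq2 to Casq1 was 0.54. In TPM the Casq2 share of both was 57.3% and 43.6%, and that log2 ratio was 0.03 ± 0.57, which did not exceed the spread. This near-even level stood beside a pump pair in which the slow gene held 1.13% and 0.631% of pump TPM. Heart markers, given above, were at or near 0 in both libraries, and the 6 slow fibre markers summed to 2623 and 3176 TPM against 41103 and 65323 for the 7 fast fibre markers. The myosins did not all follow these sums: Myh4 had 20.65 and 41.91 TPM and Myh1 20.24 and 31.75, below slow Myh7 at 141.55 and 57.23. Perinatal Myh8, counted as fast, had 3239.01 and 4187.29. The other fast markers, Tnnt3, Tnni2, Tnnc2 and Mylpf, each stood above every slow marker in both libraries.

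Casq1 kept nearly the same ratio to the fast pump in both libraries, with a log2 ratio to Atp2a1 of −1.18 in replicate 1 and −1.14 in replicate 2. With all pump reads over the full model the mean ratio was −0.54 in place of −1.16, still below 0. Both calsequestrins together had 1.03 transcripts per Atp2a1 transcript in replicate 1 and 0.805 in replicate 2 by the deposited TPM, and 1.56 and 1.28 with all reads over the main models, so the scaling decides on which side of 1 replicate 2 lies. Most Casq1 signal lay on its full coding model, at 98.58% and 95.71% of the gene's TPM, and a retained-intron model took 1.36% and 4.2%. The main Casq2 model held 99.57% and 99.14%.

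Calsequestrins bind calcium through acidic residues, and their tails are printed to show this. Each tail comes from the longest complete coding model of the gene. For Casq2 this is not the main model, and the tails of both were not compared. The last 20 codons and the stop codon of each gene follow, 5′ to 3′ from GENCODE M21 on GRCm38, with codons for aspartate or glutamate in capitals: 18 of 20 in Casq1 and 15 of 20 in Casq2.
Casq1: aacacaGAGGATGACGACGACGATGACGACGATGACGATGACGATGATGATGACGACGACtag
Casq2: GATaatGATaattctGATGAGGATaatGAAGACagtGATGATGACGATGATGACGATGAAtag

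Over whole coding sequences, acidic codons were frequent in 4 of the 5 buffers. They made up 28.4% of codons in Casq1, 26.7% in Casq2 and 30.8% in Hrc, each above the 99th percentile of 22% over 21497 coding genes, whose median was 11.2%. Pvalb followed at 20% and Srl, whose main form has 472 codons, was near other genes at 13.6%. The longer coding model of Srl was not measured, so this value does not describe it. The pumps lay at 11.8% to 12.9%, and Sln at 6.45% and Pln at 3.85% lay below the median. These shares describe sequence only and come from the annotation, not from the libraries.

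**Figure D4:**
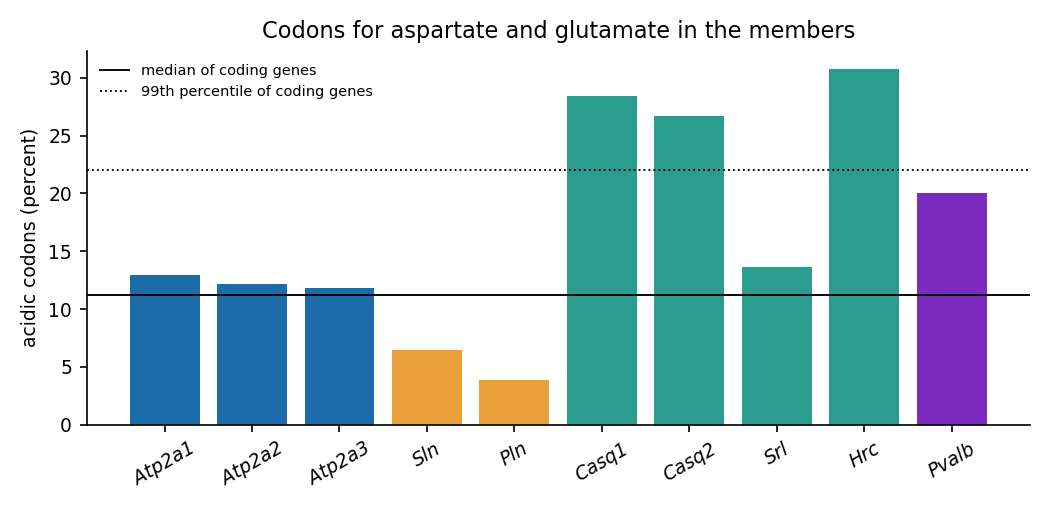
Percent of codons for aspartate or glutamate in each member (bars, coloured by role), with the median and the 99th percentile of all coding genes as lines. The bar of Srl is that of its shorter coding model. Hrc, Casq1 and Casq2 lie above the 99th percentile of 22%, and Sln and Pln lie below the median of 11.2%.

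Other luminal proteins were lower than the calsequestrins. Srl (chromosome 16, 4480216 to 4541816, minus strand) had 952.06 TPM in replicate 1 and 288.91 in replicate 2, from 77808 and 31057 reads. It was 3.30-fold higher in replicate 1, and its ratio to Casq1 went from 0.740 to 0.170, so the log2 ratio of −1.49 ± 1.5 did not exceed the spread. The model with 1416 coding bases held 82.35% and 75.61% of Srl TPM, the longer coding model 7.34% and 14.15%, and a short retained-intron model 10.31% and 10.24%. The longer coding model, with 2730 coding bases, had 69.89 and 40.87 TPM, so the level of Srl is mostly that of the shorter form. Hrc (chromosome 7, 45335290 to 45338974, plus strand), which also takes part in control of pump and release channel, had 77.92 and 59.42 TPM from 4394 and 4291 reads. Casq1 exceeded Hrc 16.5-fold and 28.6-fold, and the log2 ratio of Hrc to Casq1 was −4.42 ± 0.56.

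Parvalbumin was among the lower detected members. Pvalb (chromosome 15, 78191114 to 78206400, minus strand) stood at 19.09 TPM, from 406 reads, in replicate 1 and at 95.70, from 2608 reads, in replicate 2. Replicate 2 was 5.01-fold higher, the widest gap among the members detected in both libraries. Atp2a1 exceeded Pvalb 153-fold and 39.2-fold, and 102-fold and 24.5-fold with reads over the main models. The log2 ratio of Pvalb to Atp2a1 was −6.23 ± 1.35, which exceeded the spread. Its main model held 72.48% and 75.66% of the gene's TPM. Fast fibre markers were also higher in replicate 2: Myh4, the type IIb myosin heavy chain of the fibres in which parvalbumin is known, had 20.65 TPM in replicate 1 and 41.91 in replicate 2. Slow fibre markers also summed higher there, at 2623 and 3176 TPM, though Myh7 and Myl3 were lower in replicate 2. What part fibre type had in the Pvalb difference was not tested.

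In order of mean level the members ran Sln, Atp2a1, Casq2, Casq1, Srl, Hrc, Pvalb, Atp2a2, Atp2a3 and Pln. Between neighbours, the libraries' ranges overlapped for Casq2 and Casq1, for Hrc and Pvalb, for Pvalb and Atp2a2, and for Atp2a3 and Pln, so the order within these pairs is not settled by the data. The other neighbours kept their order in both libraries. Paralogues could be told apart in these tables: the coding sequences of Atp2a1 and Atp2a2 match at 75.7% of aligned bases, and those of Casq1 and Casq2 at 69.8%, and no 100-base stretch of Atp2a1, Atp2a2, Casq1 or Casq2 occurs in a paralogue. A length of 100 was taken because effective lengths in the tables were the length minus 99.

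With centring on the median gene, Srl and Pvalb differed most between the libraries among the members, in opposite directions. Among the 8 members with at least 10 counts in both libraries, 2 lay more than 2-fold apart after centring on the median gene, Srl at a log2 ratio of replicate 1 to replicate 2 of 1.67 and Pvalb at −2.38. Over all 4872 genes with that many counts the share was 51.0%. Among genes with a mean count above 10000, the class of Atp2a1, Sln, Casq1, Casq2 and Srl, 22.2% lay more than 2-fold apart, and 1 of these 5 members did. In the class of 1000 to 10000 counts, which holds Atp2a2, Hrc and Pvalb, the share was 51.4%, and 1 of 3 members did. Within the class of high counts, where most members lie, their share was thus near that of other genes.

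Remaining members had centred log2 ratios from −0.63 for Sln to 0.43 for Atp2a2, with −0.41 for Atp2a1, −0.45 for Casq1, and 0.34 for both Casq2 and Hrc. Higher in replicate 1 were 4 of 8 members and higher in replicate 2 the other 4, with a median of −0.03. Centring on the 25 spike-in RNAs with enough reads gave a shift of 0.98 (log2) in place of 0.05 and lowered every ratio, to 0.74 for Srl and −3.31 for Pvalb; then 4 of 8 members lay more than 2-fold apart, against 60.6% of genes, namely Atp2a1, Sln, Casq1 and Pvalb, and Atp2a2, Casq2 and Hrc turned to replicate 2. Only Srl stayed higher in replicate 1 under both centrings and as deposited, and Pvalb, Sln, Atp2a1 and Casq1 stayed higher in replicate 2. This is 1 library against 1 of the same group.

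**Figure D5:**
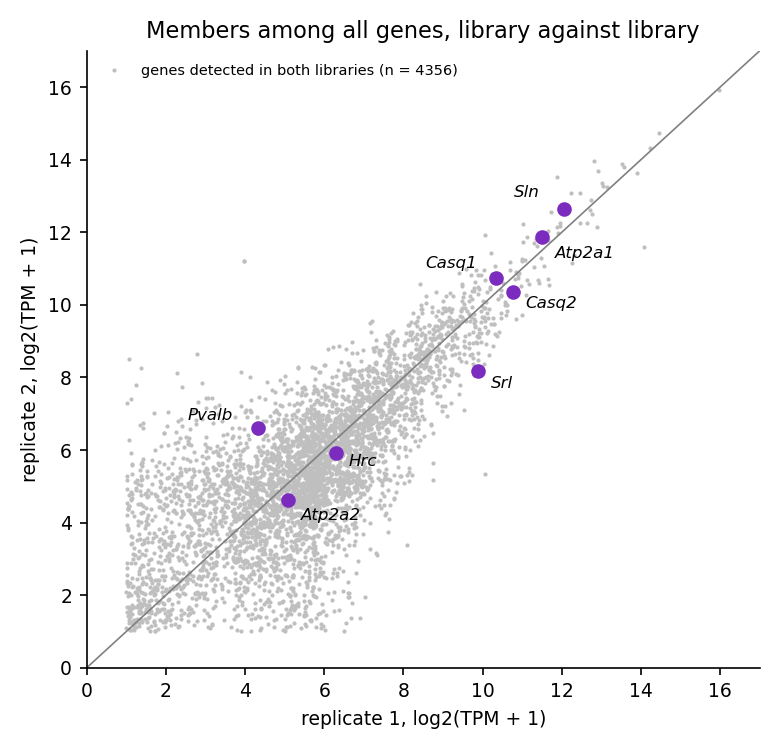
Replicate 2 against replicate 1, log2(TPM + 1), for the 4356 genes detected in both libraries (grey) and the 8 detected members (purple), with the line of equal values. Srl lies below and Pvalb above the line, and the other 6 members lie closer to it.

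Other genes of calcium handling were counted by list, and the share detected in both libraries over all genes, 10%, stands beside every count that follows; differences between lists were not tested. Of 15 release channel and triad genes, 11 were detected in both libraries and 3 in replicate 2 alone. The highest were Tmem38a, a counter-ion channel of the reticulum, at 656 ± 130 TPM, the calcium channel subunit Cacng1 at 634 ± 61.7, Fkbp1a, which binds the release channel, at 448 ± 50.5 and Asph, whose locus encodes junctin, at 209 ± 0.354. Those in replicate 2 alone were Ryr3 (0.32 and 32.07 TPM), Cacnb1 (0.01 and 114.39) and Jph1 (0.03 and 12.76). All these means lay below that of either calsequestrin.

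Other luminal calcium-binding proteins, most of them known from the endoplasmic reticulum, were detected in both libraries for 10 of 10 genes. They were led by Rcn3 at 295 ± 16.3 TPM, Hspa5 at 201 ± 127, Sdf4 at 188 ± 21.1 and Calu at 181 ± 60.2, and all 10 together summed to 1336 and 1335 TPM, close to the level of Casq1 or Casq2 alone. Cytosolic EF-hand proteins gave 7 of 11, among them the calmodulin gene Calm2 at 505 ± 259, S100a10 at 376 ± 329 and sorcin (Sri) at 168 ± 40.2, each above Pvalb in both libraries. They were listed by EF-hand family, which does not show that each, S100a10 included, binds calcium. Oncomodulin (Ocm), the paralogue of parvalbumin, and the calbindin genes Calb1 and Calb2 had 0 reads in both.

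Pumps, exchangers and channels outside the sarcoplasmic reticulum were counted the same way. Of 8 pumps and exchangers of the plasma membrane and Golgi, 2 were detected in both libraries, Atp2b1 at 8.33 and 23.41 TPM and Atp2b4 at 97.94 and 3.17. The exchanger gene Slc8a1 was found in replicate 2 alone. Of 6 genes of store-operated entry, 2 were found in both, Stim1 at 27.68 and 88.12 TPM and Saraf at 152.74 and 78.05. Stim2 (29.71 TPM) and Orai2 (21.74 TPM) were found in replicate 2 alone, while Orai1 and Orai3 had 0 reads in both libraries. Mitochondrial calcium uptake gave 3 of 7, among them Smdt1 at 167.07 and 74.20 TPM and the channel gene Mcu at 62.16 and 41.04. Atp2a1 stood above each gene named here in both libraries.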

How the data were processed

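RNA of skeletal muscle from newborn mice was measured in 2 libraries of 1 group. For each library the authors deposited a gene and a transcript table with the columns of RSEM, per the file headers: expected counts (estimated reads, not normalized), TPM (per effective length, scaled to a fixed sum over all rows, spike-ins included), FPKM, and the percent of a gene's TPM on each transcript. Assembly mm10 and GENCODE M4 are named in the notes deposited with the files. Aligner and strand setting: not given in the sources used here. Symbols, coordinates, exons and sequences came from GENCODE M21 on GRCm38, matched by identifier without version; 42462 of 43346 genes had a symbol. Spike-ins held 5.20% and 2.50% of expected counts. Reads have no molecular identifiers, so intervals and limits cover counting error only.

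Ratios within a library were log2 of TPM + 1. Ratios between libraries used genes with at least 10 counts in both, centred on the median gene. This calculation was tested on data simulated with counting noise only. Log2 ratios between the real libraries had an SD of 2.26, so the simulation does not show how the calls behave at that spread. A count of 0 was taken to allow 3 counts. Adult Atp2a1 was the model with the 42-base exon. Coding sequences were aligned globally with Biopython 1.88. Alternatives were a pseudocount of 0.1, posterior mean TPM, FPKM, reads without length, TPM over genes only, stricter and looser detection, other centrings, filters and folds, and each library alone; the full-length scaling was added after seeing the data. Named genes were all members, all pump-binding peptides, the 4 highest of each other list and those behind small counts, except some that are not reported here. Members, lists and markers were chosen with earlier results of these data known. Lists of smooth muscle, mast cell, neuron and Schwann cell and connective tissue markers had 2 of 5, 3 of 4, 0 of 5 and 4 of 4 members detected in both libraries. Calculations ran in pandas 2.3.3 and scipy 1.17.1 under Python 3.11.15, with numpy 2.4.6; plots were drawn in matplotlib 3.10.9.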

Additional observations from a re-analysis of the deposited data

How the results depend on the processing

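Reads without length adjustment turned the log2 ratio of Sln to Atp2a1 to −1.73, and gave −5.90 for Atp2a2 to Atp2a1, −10.72 for Pln to Sln and an adult Atp2a1 share of 88.4%. With all reads over the main transcript of each gene, the ratios were 1.29 for Sln to Atp2a1 and −6.19 for Atp2a2 to Atp2a1. A pseudocount of 0.1 gave −15.67 for Pln to Sln against −12.35 with 1, values set by the pseudocount since Pln had 0 reads. Centring on spike-ins gave 4 members past 2-fold in place of 2. Leaving these aside, 28 values of these 8 results under other settings moved by less than 1 SD or, for counts, by no more than 1.5 times. A single library always lies within 1 SD of the mean of 2, so the 2 values of each library alone, given in the report, say nothing about stability. The count of members past 2-fold needs both libraries, so leaving 1 out was not possible. For results not listed here, 50 values under settings with both libraries stayed within these limits and 15 moved, with no change of direction. Pvalb, Atp2a2 and Hrc rest on 406 to 4394 reads a library, and read depth does not show what was lost before amplification of 13 pg of RNA.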
